A study of Mus musculus with 12 samples.

Results

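Conserved long non-coding RNAs (lncRNAs) of neurons were examined in brain tissue of 5×FAD mice, a transgenic model of Alzheimer's disease, and of wild-type (WT) mice. The 8 genes were Miat, Tug1, Oip5os1, Pantr1, C130071C03Rik, Tunar, Pvt1 and 2900097C17Rik. They were chosen by name and not by a rule on their values, though earlier results of these data were known. Every transcript of the lncRNA count table whose identifier belongs to one of them in the GENCODE M21 annotation was taken. This gave 42 of the 48033 transcripts in the table, and 8 of the 22103 genes and assembled loci to which these belong. A total of 7 genes matched by name, and Oip5os1 was found under its older name, 1700020I14Rik. All mice were 7 months old and of C57BL/6J background. The 5×FAD mice carried mutant human transgenes, APP among them, which are driven by elements of the neuronal Thy1 promoter, and the WT mice were non-transgenic. RNA of the hippocampus and the cerebral cortex gave 3 libraries in each of 4 groups, named here by genotype, region and number. Strand-specific libraries of total RNA were sequenced after ribosomal RNA had been depleted. The authors' paper also names RNase R, used there to remove linear RNA, and does not say whether this count table comes from RNA treated in that way. The data answer whether these lncRNAs differ between the genotypes within a region, between the regions within a genotype, and whether the genotype difference depends on the region.

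LncRNAs are transcripts without a long open reading frame, and many act in the nucleus, while others bind proteins or microRNAs in the cytoplasm. Miat, also called Gomafu, is a nuclear RNA of neurons with copies of a short repeat that splicing factors bind, and Tug1 is a widely expressed RNA described first in the developing retina. Oip5os1, also called Cyrano, carries a highly conserved microRNA site that directs the decay of miR-7, and 2900097C17Rik is the mouse Norad, which binds Pumilio proteins, repressors of mRNA. C130071C03Rik is the host of a miR-9 hairpin, Pantr1 lies beside the neural transcription factor gene Pou3f3, Pvt1 lies downstream of Myc, and Tunar, also called megamind, was described in early neural development.

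The sequences by which some of these RNAs are known were read from the GENCODE M21 transcripts (GRCm38), and the microRNAs from RefSeq (GRCm38.p6). Motifs were searched as exact letters on the transcript strand only, in the member transcripts and in 18930 annotated lncRNA transcripts. That set, from which the shares and windows come, holds the member transcripts themselves, except that of Tunar. The Miat repeat, TACTAAC, occurred 6 times in the Miat transcript with the most counts, ENSMUST00000181535 (8758 bases). It was present in 3.78% of the annotated lncRNA transcripts. The 3 of these with 6 or more copies included this transcript and ENSMUST00000182953, another form of Miat. The stretch in which 3 copies lay closest together is given with the repeat in capitals. It lies in exon 7 of 7 on the minus strand, at chr5:112216751-112216812, and has 3 copies in 62 bases. Of all 300-base windows of lncRNA transcripts, laid end to end, 0.00769% held 3 or more copies. The stretch was picked as the densest of its transcript and the windows were not, so this share does not measure how rare the stretch is.
Miat repeat stretch: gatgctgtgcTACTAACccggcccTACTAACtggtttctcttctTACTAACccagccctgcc

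The Pumilio response element, TGTA followed by any base and then ATA, occurred 11 times in the 2900097C17Rik transcript ENSMUST00000192863 (4915 bases). At least 1 copy was present in 13.0% of the annotated lncRNA transcripts, and 3 of these, this transcript among them, held 11 or more. The densest stretch, with the elements in capitals, lies in the only exon on the minus strand at chr2:156390512-156390757. It has 3 copies in 246 bases, a number reached in 0.0397% of the 300-base windows. Those windows were again laid end to end and not picked for density. The other member transcripts had 0 to 2 copies.
2900097C17Rik Pumilio element stretch: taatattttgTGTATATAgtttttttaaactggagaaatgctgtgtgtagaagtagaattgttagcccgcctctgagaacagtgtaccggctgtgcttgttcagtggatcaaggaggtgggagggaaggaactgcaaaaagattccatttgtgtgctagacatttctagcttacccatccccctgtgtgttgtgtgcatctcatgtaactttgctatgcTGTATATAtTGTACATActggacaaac

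The match to the miR-7 seed, GTCTTCC, occurred 2 times in the Oip5os1 transcript ENSMUST00000153581 (8300 bases), in exon 3 of 3 on the plus strand. The first site lies at chr2:119599942-119599971 and the second at chr2:119602132-119602161. The seed match was present in 11.6% of annotated lncRNA transcripts and in 0.247% of their 30-base windows. It also occurred 2 times each in 2900097C17Rik and the Pvt1 transcript ENSMUST00000181416. With 1 match each there were the Miat transcripts ENSMUST00000181535 and ENSMUST00000182953, the Pvt1 transcript ENSMUST00000183028 and the shorter Oip5os1 transcript ENSMUST00000147425. The sites are shown because they differ outside the seed match. At the second site 12 further bases in a row, also in capitals, were complementary to bases 11 to 22 of miR-7a-5p. For this, 4 bases of the transcript and 2 of the microRNA were skipped. The search stopped at 12 bases, and the next base, an a left in lower case, also pairs with the last base of the microRNA. At the first site the longest such run was 2 bases. In the microRNA, capitals mark the seed, bases 2 to 8.
Oip5os1 site 1: gacttcaggttttttttttaatGTCTTCCa
Oip5os1 site 2: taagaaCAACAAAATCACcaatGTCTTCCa
mmu-miR-7a-5p: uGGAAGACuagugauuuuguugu

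The RNA of C130071C03Rik contains a microRNA precursor. All 72 bases of the Mir9-2 hairpin lie within an exon of its transcript with the most counts, ENSMUST00000131907 (3590 bases, 4 exons), and 23 of the 72 lie in an exon of ENSMUST00000187663. The mature miR-9-5p, a regulator of neural progenitors, maps to chr13:83738821-83738843 on the plus strand.
mmu-miR-9-5p: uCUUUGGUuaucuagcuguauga

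**Figure D1:**
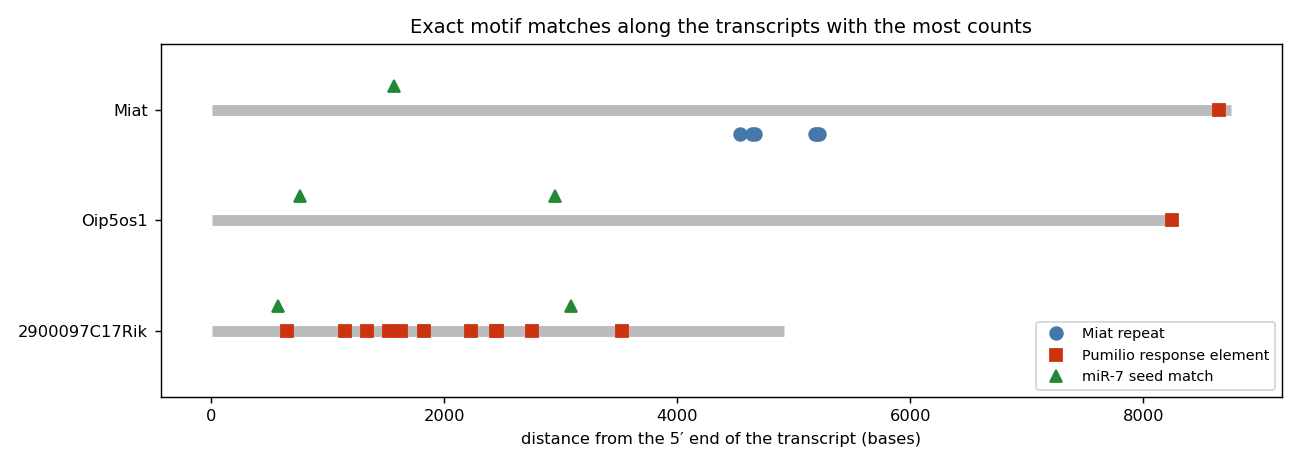
Positions of the exact matches of the Miat repeat (circles), the Pumilio response element (squares) and the miR-7 seed match (triangles) along the transcripts of Miat, Oip5os1 and 2900097C17Rik with the most counts, in bases from the 5′ end. The 6 Miat repeats lie close together near the middle of Miat, and the 11 Pumilio elements are spread over 2900097C17Rik.

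The libraries had totals of 3517967 to 5014389 counts, of which the member transcripts took 1.34% to 1.72%. Libraries of the same group differed from each other by more than counting noise. Both genotypes were described as 2 females and 1 male, but transcripts of Y-linked genes had 1074 to 1661 counts in 8 of the 12 libraries, all 6 WT libraries among them, and 0 counts in 5×FAD 1 and 5×FAD 2 of both regions. Xist, which is made in female cells, had 30468 to 46630 counts in those 4 libraries and 4 to 25 in the others. The WT libraries thus went against the stated sexes, sex was unequal between the genotypes, and the genotype values of each gene are given with all libraries and without 5×FAD 1 and 2. The table holds non-coding transcripts, and markers could be checked only through the non-coding transcripts of the marker genes. Of 6 hippocampal marker genes 3 had transcripts (Prox1, Neurod6 and Wfs1 had none), and their summed level was 126 to 148 CPM (counts per 1e06 counts) in the hippocampus and 33.5 to 54.0 CPM in the cortex. Of 6 cortical marker genes 4 had transcripts (Rasgrf2 was among those with none), with 47.7 to 70.3 CPM in the hippocampus and 74.8 to 135 CPM in the cortex. CPM here uses library sizes scaled by the trimmed mean of M values (TMM).

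Levels between genes were compared as CPM per kilobase, in which the CPM of each transcript is divided by its annotated length and the transcripts of a gene are added. The most abundant of the genes was 2900097C17Rik, at a median of 1879 CPM per kilobase over the 12 libraries (range 1632 to 2028). Oip5os1 had 431 (381 to 543) and Miat 226 (165 to 371). C130071C03Rik had 138 CPM per kilobase (109 to 171) and Tug1 113 (59.8 to 148). These last 2 genes overlapped in range, and Miat and C130071C03Rik overlapped slightly. Pantr1, at 52.7 CPM per kilobase (33.3 to 81.2), and Pvt1, at 41.2 (39.7 to 74.6), did not separate, and Tunar had 0.0800 (0.0663 to 0.756). By counts, 2900097C17Rik ranked 4 and Oip5os1 12 among all 22103 genes and loci, while Tunar ranked 13747.

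**Figure D2:**
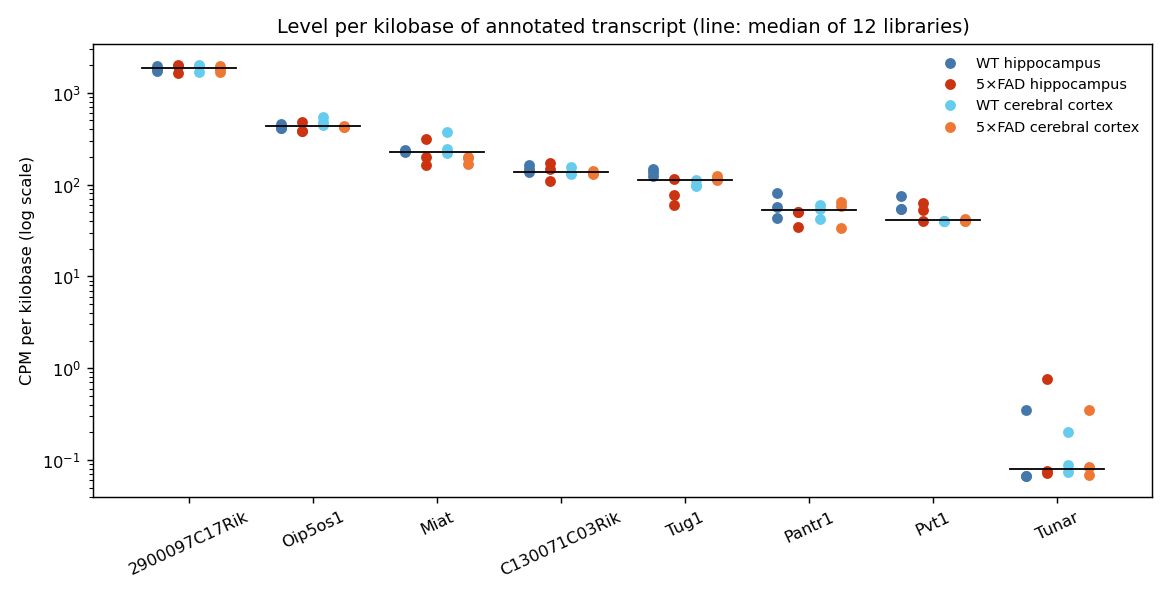
CPM per kilobase of annotated transcript on a log axis for the 8 lncRNA genes, in order of the median over 12 libraries (black line), with each library as a point coloured by group. The level of 2900097C17Rik is highest, from 1632 to 2028, and Tunar lies below 1 in all libraries.

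Some of the genes varied little over the 12 libraries, beside genes that were not matched for level. The coefficient of variation of CPM over the 12 libraries was 7.75% for 2900097C17Rik, and only 47 of the 9654 genes with a mean of at least 5 CPM had a lower one. It was 9.74% for C130071C03Rik and 10.6% for Oip5os1, beside a median of 25.6% over those genes. Counting noise adds more to this value at low counts, and 2900097C17Rik and Oip5os1 ranked 4 and 12 by counts. Whether these genes were steady for their level was not tested. Tug1, at 22.2%, and Pantr1, at 24.0%, were near this median. Miat, at 31.6%, and Pvt1, at 32.4%, varied more. Tunar was at the limit of detection, with 1 to 10 counts. It was above 3 counts, the smallest number taken as detected, in WT hippocampus 3 (5 counts), 5×FAD hippocampus 3 (10 counts) and 5×FAD cortex 3 (5 counts). The only Tunar transcript in the table has 1 exon of 3219 bases, and neither of the other annotated transcripts of the gene, which are coding or subject to decay, was used here. Tunar did not pass the filter on low counts and was not tested.

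**Figure D3:**
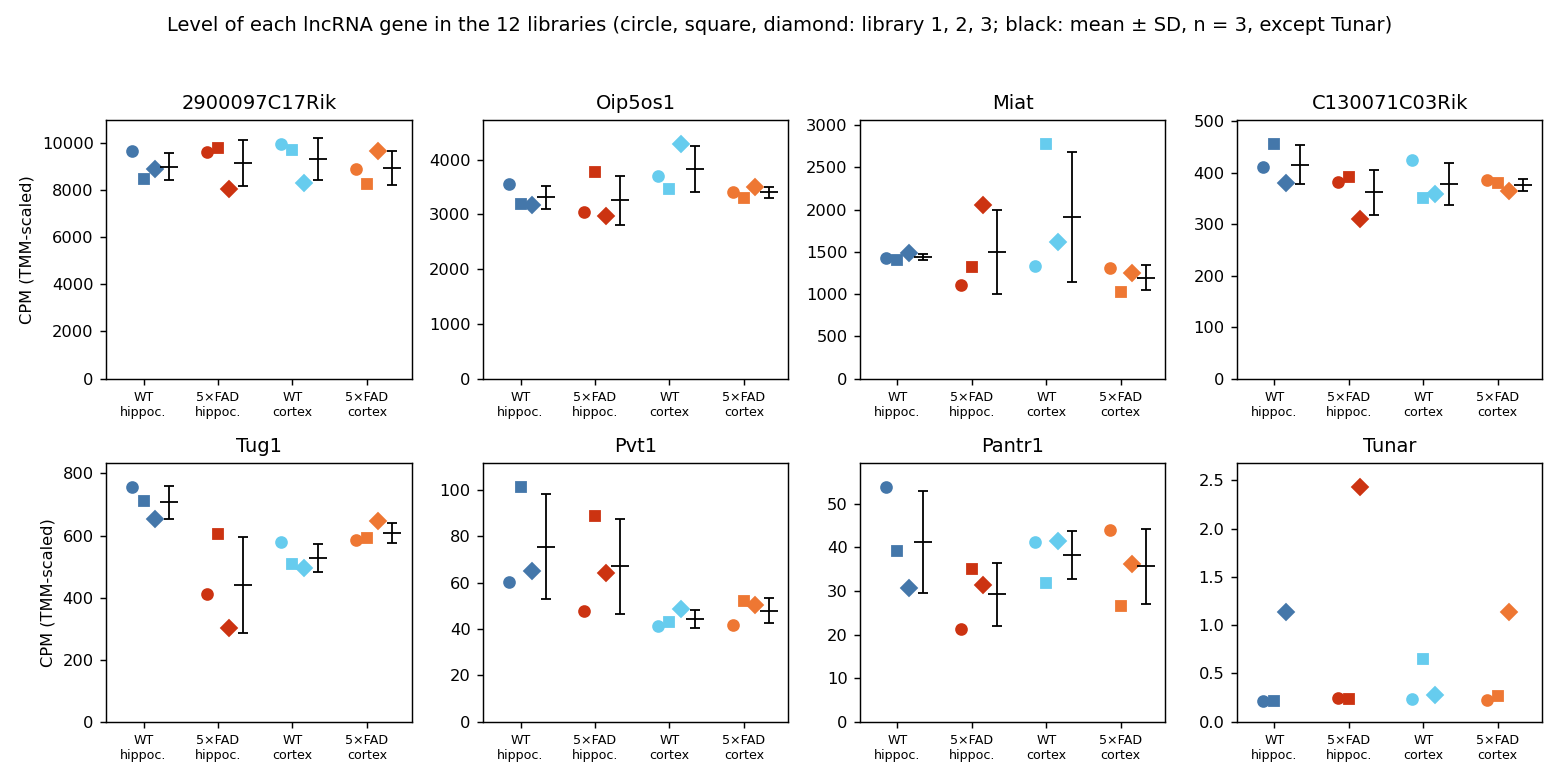
TMM-scaled CPM of the 8 lncRNA genes in each library, with the groups on the horizontal axis and the mean and SD of 3 libraries in black, drawn for all genes but Tunar. The Miat level of WT cortex 2, at 2782, lies above all other libraries, and the 3 Tug1 levels of the 5×FAD hippocampus lie below those of the WT hippocampus.

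In the hippocampus, none of the 7 tested genes passed the test between 5×FAD and WT mice. The median log2 fold change of the 7 genes was -0.13, beside 0.03 over all 11343 gene sums tested, and 3 were above and 4 below 0. At an adjusted p under 0.05, the quasi-likelihood test of edgeR, adjusted after Benjamini and Hochberg, called 0 of the 7 genes (0.0529% of all gene sums tested) and 0 of 29 tested transcripts (0.0183% of all transcripts tested), and DESeq2 called 0 of each. At an unadjusted p under 0.05, edgeR and DESeq2 each had 1 gene (8.69% of all gene sums by edgeR) and 1 transcript (7.58% of all transcripts). The groups did not overlap for 1 gene, Tug1 (16.8% of all gene sums), and for 3 transcripts (15.8%). Counts this near the background shares are no result about the members. The labels number the libraries of a group but do not state separate mice, though each genotype was described as 3 mice. By the Xist and Y-linked counts, 5×FAD hippocampus 3 was from another mouse than 5×FAD hippocampus 1 and 2. Whether each of the other libraries had its own mouse cannot be told from the labels. The p-values thus measure the spread between these libraries only, part of which may be technical.

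Tug1 had the lowest fold of the 7 genes in the hippocampus. Its level in the WT hippocampus was 757, 712 and 652 CPM in libraries 1 to 3 (707 ± 52.9, SD, n = 3). In the 5×FAD hippocampus it was 413, 606 and 301 CPM (439.7 ± 154, SD, n = 3). Every 5×FAD library was thus below every WT library, and 5×FAD 2 came nearest. The fold was 0.640, with a 95% interval of 0.422 to 0.969. The log2 fold change was -0.64 (SE 0.26), and the adjusted p of 0.549 by edgeR's quasi-likelihood test did not pass. Without 5×FAD 1 and 2, which leaves 1 library in that group that is assumed to vary like the WT libraries, the log2 fold change was -1.19. Leaving out only 5×FAD hippocampus 3, the library with the least Tug1, gave -0.44, and leaving out only 5×FAD hippocampus 2 gave -0.94. Tug1 is annotated as antisense, on the minus strand of chromosome 11 from 3639785 to 3649673 (GRCm38), and whether the counting used strand is not given in the sources used here, so reads of overlapping genes of the other strand could have been counted with it.

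Summed levels of markers of other cell types were read beside these values. The summed level of the 5 of 6 astrocyte marker genes with transcripts (Aqp4 had none) was 1429 to 1545 CPM in the WT hippocampus and 528 to 1182 CPM in the 5×FAD hippocampus. That of 5 of 6 oligodendrocyte marker genes (Mog had none) was 349 to 439 CPM in WT and 500.4 to 584 CPM in 5×FAD mice. The 7 neuronal marker genes had 1557 to 3459 CPM in WT and 1775 to 7094 CPM in 5×FAD mice. Of 10 microglial marker genes 3 had transcripts, with 30.9 to 42.1 CPM in WT and 46.7 to 202 CPM in 5×FAD mice, and Csf1r, Cx3cr1, P2ry12, Tmem119, C1qa, C1qb and Ctss had none. By gene sum, edgeR called 0 of the tested markers (4 astrocyte, 5 oligodendrocyte, 7 neuronal and 2 microglial genes). At an unadjusted p under 0.05 it had 1, 1, 2 and 1 of them (8.69% of all gene sums). DESeq2 called 1 marker, the microglial receptor gene Trem2, among the 83 gene sums that it called in all. The median log2 fold changes, 0.02 for astrocyte and -0.08 for oligodendrocyte genes, were near 0, while the summed levels were apart. The medians of the neuronal and microglial genes were 0.41 and 1.18 by gene sum, and -0.14 and 1.16 by transcript. The part of these markers in the Tug1 values was not tested, and in whole tissue fewer cells of a type and less RNA per cell cannot be told apart.

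Miat had similar levels in the hippocampus of both genotypes, with a wide spread in 5×FAD mice. The WT libraries had 1432, 1402 and 1482 CPM (1439 ± 40.3, SD, n = 3). The 5×FAD libraries had 1109.6, 1325 and 2058 CPM (1498 ± 497, SD, n = 3). The groups overlapped, since 5×FAD 1 and 2 were below all WT libraries and 5×FAD 3 was above them. The log2 fold change was 0.10 with a 95% interval of -0.47 to 0.67 (adjusted p = 0.922, edgeR). Its sign rests on 5×FAD 3, without which the value was -0.20, while without 5×FAD 1 and 2 it was 0.56 (adjusted p = 0.212, edgeR).

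The genotypes overlapped in the gene sums of the microRNA-linked lncRNAs in the hippocampus, but not in 1 transcript of each. Oip5os1 had 3557, 3196 and 3173 CPM in WT libraries and 3041, 3768 and 2961 CPM in 5×FAD libraries. The highest of all 6 libraries was 5×FAD 2, and the groups overlapped. The log2 fold change was 0.02, with a 95% interval of -0.36 to 0.40. Its shorter transcript ENSMUST00000147425 had 51.1, 45.9 and 55.5 CPM in WT and 33.7, 37.8 and 40.9 CPM in 5×FAD libraries, without overlap (log2 fold change -0.42, adjusted p = 0.663, edgeR). C130071C03Rik, the miR-9 host, had 410.1, 456 and 380.2 CPM in WT and 382, 392 and 311 CPM in 5×FAD libraries, and its log2 fold change was -0.16 (interval -0.54 to 0.23). The transcript of C130071C03Rik with the hairpin, ENSMUST00000131907, had 1711, 1874 and 1492 counts in WT and 1234, 1445 and 1138 counts in 5×FAD libraries. The 2 groups of this transcript did not overlap in CPM, and its log2 fold change was -0.26 (adjusted p = 0.735, edgeR). Without 5×FAD 1 and 2 the log2 fold changes were -0.12 for Oip5os1, -0.38 for C130071C03Rik, -0.30 for ENSMUST00000147425 and -0.39 for ENSMUST00000131907. That of C130071C03Rik was -0.06 without 5×FAD hippocampus 3.

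The most abundant of the genes, the Norad gene 2900097C17Rik, had 9627, 8465 and 8867 CPM in WT and 9585, 9785 and 8016 CPM in 5×FAD hippocampus. The groups overlapped, and the 95% interval of the fold, 0.810 to 1.35, was on the log2 scale about as wide as those of Oip5os1 and C130071C03Rik. Pantr1 had 53.9, 39.0 and 30.7 CPM in WT and 21.2, 35.0 and 31.4 CPM in 5×FAD libraries, with a log2 fold change of -0.46 (interval -1.12 to 0.21). Pvt1 had 60.1, 101 and 65.1 CPM in WT and 48.0, 88.7 and 64.3 CPM in 5×FAD libraries. In Pvt1, library 2 was the highest of its group in both genotypes, and the log2 fold change was -0.13 (interval -0.81 to 0.55). Leaving out 5×FAD 1 and 2 gave log2 fold changes of -0.12 for 2900097C17Rik, -0.35 for Pantr1 and -0.19 for Pvt1, and that of Pantr1 was -0.22 without WT hippocampus 1.

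**Figure D4:**
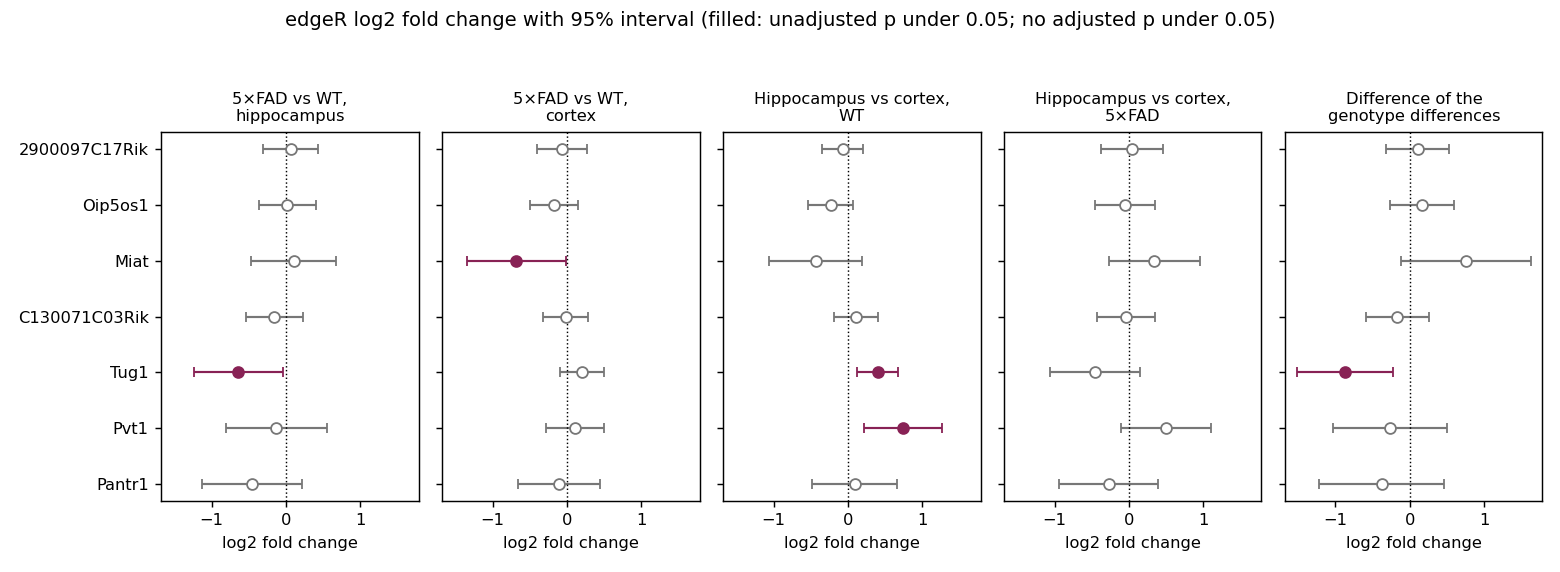
edgeR log2 fold changes with 95% intervals for 7 lncRNA genes in the 5 comparisons (Tunar was not tested). Filled points have an unadjusted p under 0.05, and no gene had an adjusted p under 0.05.

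In the cerebral cortex, too, none of the genes passed the test between the genotypes. The median log2 fold change of the 7 genes was -0.07, beside -0.001 over all 11404 gene sums, with 2 above and 5 below 0. edgeR called 0 of 7 genes (0.0175% of all gene sums) and 0 of 25 transcripts (0.0545% of all transcripts) at an adjusted p under 0.05, and DESeq2 called 0 of each. At an unadjusted p under 0.05 each tool had 1 gene (6.67% of all gene sums by edgeR) and 3 transcripts (5.34%), all 3 of Miat. The groups did not overlap for 2 genes, Miat and Tug1 (12.9% of all gene sums), and for 3 transcripts (12.1%).

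Miat had 1335, 2782 and 1613 CPM in the WT cortex (1909.8 ± 768, SD, n = 3) and 1314, 1028 and 1244 CPM in the 5×FAD cortex (1195 ± 149.6, SD, n = 3). Every 5×FAD library was below every WT library, though WT 1 and 5×FAD 1 were nearly equal, and WT 2 stood far above the rest. The fold was 0.623 (95% interval 0.393 to 0.986) and the log2 fold change -0.68 (SE 0.28), with an adjusted p of 0.740 by edgeR's quasi-likelihood test. Without WT cortex 2 the log2 fold change was -0.31, and without 5×FAD 1 and 2 it was -0.62 (adjusted p = 0.833, edgeR). The summed level of the oligodendrocyte markers was 295 to 473 CPM in the WT cortex and 539 to 610.3 CPM in the 5×FAD cortex, and that of the astrocyte markers 959.99 to 1595 and 963 to 1533 CPM. The neuronal markers had 1603 to 2838 CPM in WT and 1375 to 3166 CPM in 5×FAD cortex. The microglial markers had 45.9 to 60.3 and 26.7 to 246 CPM. By gene sum, edgeR and DESeq2 called 0 markers of each of these cell types in the cortex. At an unadjusted p under 0.05 edgeR had 1 astrocyte, 2 oligodendrocyte, 1 neuronal and 0 microglial genes (6.67% of all gene sums). The part of these markers in the Miat values was not tested.

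Tug1 in the cortex had the opposite order to that in the hippocampus. The WT libraries had 581, 508 and 495 CPM (528 ± 46.2, SD, n = 3), and the 5×FAD libraries had 586, 594 and 646 CPM (609 ± 33.0, SD, n = 3). The groups did not overlap, with WT 1 and 5×FAD 1 close to each other. The log2 fold change was 0.20, with a 95% interval of -0.10 to 0.49 (adjusted p = 0.802, edgeR), and it was 0.29 without 5×FAD 1 and 2.

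The remaining genes overlapped between the genotypes in the cortex. Oip5os1 had 3709.6, 3470.0 and 4294 CPM in WT and 3413, 3298 and 3491 CPM in 5×FAD libraries, with a log2 fold change of -0.18 (interval -0.50 to 0.15). C130071C03Rik had 425, 351 and 358 CPM in WT and 385, 379 and 364 CPM in 5×FAD libraries, a log2 fold change of -0.02. 2900097C17Rik had 9962, 9669.9 and 8293 CPM in WT and 8875, 8228 and 9665 CPM in 5×FAD libraries, a log2 fold change of -0.07. For these genes the 95% intervals of the fold lay between 0.705 and 1.22. Among the less abundant genes, Pantr1 had 41.3, 31.9 and 41.4 CPM in WT and 43.9, 26.6 and 36.2 CPM in 5×FAD libraries. Pvt1 had 41.3, 43.1 and 48.4 CPM in WT and 41.7, 51.9 and 50.3 CPM in 5×FAD libraries, and its log2 fold change was 0.11 (interval -0.28 to 0.49). Without 5×FAD 1 and 2 the log2 fold changes were -0.13 for Oip5os1, -0.06 for C130071C03Rik, 0.05 for 2900097C17Rik, -0.08 for Pantr1 and 0.18 for Pvt1. That of Oip5os1 was -0.08 without WT cortex 3.

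Between the regions, every WT hippocampus library had more Tug1 and more Pvt1 than every WT cortex library, though neither gene passed the adjusted test. In WT mice edgeR called 0 of 7 genes (3.49% of all 11429 gene sums) and 0 of 27 transcripts (0.986%) at an adjusted p under 0.05, and DESeq2 called 0 of each. At an unadjusted p under 0.05, edgeR and DESeq2 had 2 genes each (17.3% of all gene sums by edgeR), and edgeR had 1 transcript and DESeq2 0 (12.8% of all transcripts by edgeR). The groups did not overlap for the same 2 genes (24.9% of all gene sums) and for 3 transcripts (20.6%). Gene counts this near the background share are no result about the members. The median log2 fold change, hippocampus over cortex, was 0.09 for the 7 genes and -0.02 for all gene sums. Each genotype was described as 3 mice, so that libraries of both regions would share mice, but the pairs are not given. By the Y-linked counts, hippocampus 3 and cortex 3 of the 5×FAD mice would then be 1 mouse. The region tests treated all libraries as independent.

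The Tug1 level of 707 ± 52.9 CPM in the WT hippocampus was 1.32-fold that of 528 ± 46.2 CPM in the WT cortex (interval 1.09 to 1.59, SD over n = 3 for each level). The log2 fold change was 0.40 (SE 0.12, adjusted p = 0.134 by edgeR's quasi-likelihood test). Pvt1 had 75.5 ± 22.5 CPM in the WT hippocampus and 44.3 ± 3.72 CPM in the WT cortex, a fold of 1.67 (interval 1.16 to 2.41). Its log2 fold change was 0.74 (SE 0.22, adjusted p = 0.145 by edgeR's quasi-likelihood test), and it was 0.49 without WT hippocampus 2, the library with the most Pvt1. DESeq2 gave the lowest adjusted p among the members in this comparison, 0.0765. The log2 fold changes of the other 5 genes were -0.43 for Miat, -0.23 for Oip5os1, -0.07 for 2900097C17Rik, 0.09 for Pantr1 and 0.11 for C130071C03Rik. That of Miat was -0.07 without WT cortex 2.

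In 5×FAD mice, edgeR called 0 of 7 genes (0.193% of all 11399 gene sums) and 0 of 26 transcripts (0.0182%) between the regions, and DESeq2 called 0 of each. No gene had an unadjusted p under 0.05 by edgeR or DESeq2 (12.6% of all gene sums by edgeR), and no gene had groups that did not overlap (19.1%). At the transcript level, 2 had an unadjusted p under 0.05 by each tool (9.38% of all transcripts by edgeR) and 3 did not overlap (17%). Tug1 had 439.7 ± 154 CPM in the hippocampus and 609 ± 33.0 CPM in the cortex of these mice (SD, n = 3 each), a log2 fold change of -0.46 (interval -1.06 to 0.15), which was -0.75 without 5×FAD hippocampus 2 and -0.25 without 5×FAD hippocampus 3. Pvt1 had 67.0 ± 20.5 CPM in the hippocampus and 48.0 ± 5.47 CPM in the cortex (SD, n = 3 each), a log2 fold change of 0.49 (interval -0.11 to 1.10), which was 0.25 without 5×FAD hippocampus 2. Miat had a log2 fold change of 0.34 (interval -0.27 to 0.95), which was 0.03 without 5×FAD hippocampus 3.

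The difference between the genotype differences of the regions was tested in a fit of all 12 libraries. edgeR called 0 of 7 genes (0% of all 12104 gene sums) and 0 of 29 transcripts (0.00812% of all transcripts) at an adjusted p under 0.05, and DESeq2 called 0 of each. At an unadjusted p under 0.05 each tool had 1 gene, Tug1 (7.01% of all gene sums by edgeR), and edgeR had 2 transcripts and DESeq2 5 (6.89% of all transcripts by edgeR). For Tug1 the genotype difference in the hippocampus minus that in the cortex was -0.87 on the log2 scale (SE 0.29), with an adjusted p of 0.657 by edgeR's quasi-likelihood test and 0.353 as the lowest member value of DESeq2. For Miat the difference was 0.76 with the opposite sign (SE 0.40, adjusted p = 0.721, edgeR), and 0.41 without WT cortex 2, and for the other 5 genes it was between -0.38 and 0.17.

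Counts were not spread evenly over the transcripts of a gene, and the transcripts share much of their sequence. Whether the deposited counts are whole reads or rounded estimates, and how reads shared by transcripts were assigned, is not given in the sources used here. In 2900097C17Rik nearly all counts lay on ENSMUST00000192863, from 29449 to 45023 counts. The other transcript, ENSMUST00000192590, lies wholly within it and had exactly 2 counts in all 12 libraries. In Oip5os1, ENSMUST00000153581 held 98.3% to 99.9% of the counts. The shorter Oip5os1 transcript, ENSMUST00000147425, shares 99.6% of its bases with it and had 11 counts in 5×FAD cortex 3, against 137 to 244 in the other 11 libraries.

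In Miat, ENSMUST00000181535 held 69.1% to 99.0% of the gene's counts. All of its bases are shared with ENSMUST00000182953, which has 449 bases of its own. This longer form had 24 counts in WT cortex 2, the library with the most Miat, and 1594 counts in 5×FAD cortex 3. In the other libraries it had 176 to 831 counts. In the cortex, ENSMUST00000181535 had 5327, 12788 and 5353 counts in WT and 5540, 3488 and 3797 counts in 5×FAD libraries, and its groups did not overlap in CPM. Its log2 fold change was -0.87 (SE 0.32, adjusted p = 0.912, edgeR), so that it was further from 0 than the gene sum. It was -0.46 without WT cortex 2, the library with the most counts of it, and -1.10 without 5×FAD 1 and 2. The short forms went both ways in the cortex. The WT libraries had 75, 59 and 55 counts of ENSMUST00000183036 (357 bases), and the 5×FAD libraries had 43, 28 and 45, a log2 fold change of -0.75 (adjusted p = 0.886, edgeR). The WT libraries had 16, 17 and 10 counts of ENSMUST00000182699 (284 bases), and the 5×FAD libraries had 25, 23 and 27, a log2 fold change of 0.79 (adjusted p = 0.907, edgeR). These log2 fold changes were -0.59 and 0.83 without 5×FAD 1 and 2. In the WT hippocampus the form ENSMUST00000182699 had 23, 30 and 24 counts, all above those of the WT cortex, and in the 5×FAD hippocampus 14, 12 and 25.

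In Tug1, the transcript ENSMUST00000144852 was present or absent by library. It had 687 counts in WT hippocampus 1, 378 in 5×FAD hippocampus 3, 657 in WT cortex 3 and 679 in 5×FAD cortex 1. In the other 8 libraries it had 0 counts, which allows up to 0.598 to 0.853 CPM at 3 counts per library, for counting error only. Each group held it in exactly 1 library, so its presence did not follow genotype or region. The transcript shares 98.7% of its bases with ENSMUST00000153313, which had 48.3% to 93.0% of the gene's counts in each library. That share was 48.3% to 66.9% in the 4 libraries with the other form and 82.3% to 93.0% in the 8 without it. In the hippocampus ENSMUST00000153313 took 2368, 2968 and 2665 counts in the WT libraries, and 1416, 2340 and 597 in the 5×FAD libraries. The transcript ENSMUST00000132077, with 1607 bases of its own, had 180 to 483 counts and 7.0% to 20.8% of the gene.

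**Figure D5:**
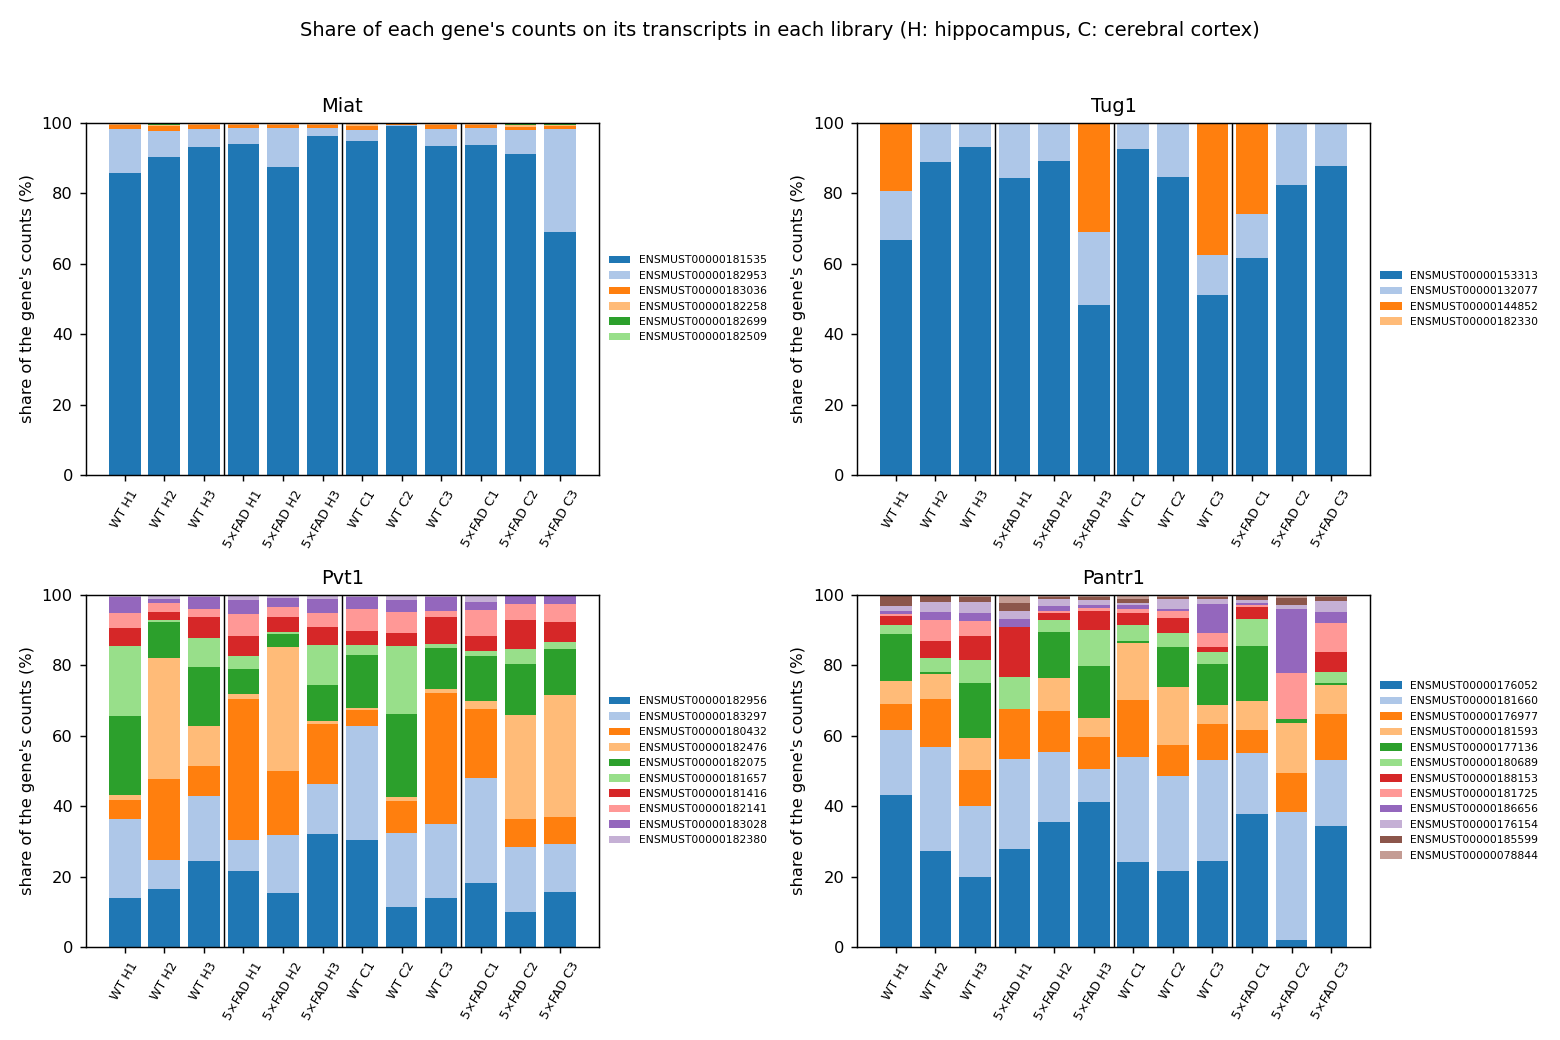
Share of the counts of Miat, Tug1, Pvt1 and Pantr1, in percent, on each annotated transcript in each of the 12 libraries, with black lines between the groups. The transcript ENSMUST00000144852 of Tug1 appears in 1 library of each group, and the forms of Pvt1 and Pantr1 vary widely between libraries of the same group.

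Pvt1 and Pantr1 had no leading transcript. In Pvt1, whose 10 transcripts span 62037986 to 62378096 on the plus strand of chromosome 15, the transcript with the most counts in all, ENSMUST00000182956, held 9.84% to 32.2% of the gene. The form ENSMUST00000182476 had 163 counts in WT hippocampus 2, 136 in 5×FAD hippocampus 2, 77 in 5×FAD cortex 3 and 57 in 5×FAD cortex 2. It had 32 counts in WT hippocampus 3 and 1 to 4 in the other 7 libraries. In the hippocampus, the WT libraries had 63, 49 and 48 counts of ENSMUST00000182075, and the 5×FAD libraries had 14, 14 and 27. Every 5×FAD library was below every WT library, with a log2 fold change of -1.38 (SE 0.36, adjusted p = 0.564, edgeR), which was -0.80 without 5×FAD 1 and 2. In the cortex the counts of this form were 26, 47 and 20 in the WT and 24, 28 and 29 in the 5×FAD libraries. Its genotype difference in the hippocampus minus that in the cortex was -1.21 on the log2 scale (adjusted p = 0.674, edgeR). Between the regions of 5×FAD mice, ENSMUST00000180432 had 78, 69 and 45 counts in the hippocampus and 37, 15 and 17 in the cortex, a log2 fold change of 1.50 (adjusted p = 0.339, edgeR). ENSMUST00000182956 had 42, 59 and 85 against 34, 19 and 35 counts, a log2 fold change of 1.11 (adjusted p = 0.419, edgeR).

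Pantr1, with 12 transcripts on the minus strand of chromosome 1 from 42590782 to 42694842, had 86 to 252 counts per library in all. Its transcript ENSMUST00000176052 had 2 counts in 5×FAD cortex 2 and 24 to 109 in the others, and the share of the gene it held went from 2.02% to 43.3%. In that library ENSMUST00000181725 and ENSMUST00000186656 had 13 and 18 counts. In C130071C03Rik, ENSMUST00000131907 held 79.5% to 89.3% of the counts in every library.

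Genes that lie beside the lncRNAs or bind them were read from the non-coding transcripts of those genes. Of 7 neighbours, Pou3f3, Tmem161b and Myc had no transcript in the table, and Mef2c, Morc2a, Oip5 and Epb41l1 were tested. Mef2c, a transcription factor gene near C130071C03Rik, was called between the regions of WT mice, with 113, 113 and 109 CPM in the hippocampus and 286, 262 and 326 CPM in the cortex. Its log2 fold change was -1.41 (SE 0.13, adjusted p = 0.00604, edgeR), while that of C130071C03Rik in the same comparison was 0.11. In the other 4 comparisons edgeR and DESeq2 called 0 of the neighbours by gene sum, and of their transcripts DESeq2 called 1, ENSMUST00000199262, between the regions of 5×FAD mice. Oip5, the gene beside Oip5os1, had 1.82 to 2.35 CPM in the WT hippocampus and 3.16 to 5.30 CPM in the 5×FAD hippocampus, a log2 fold change of 0.98 (adjusted p = 0.540, edgeR), while that of Oip5os1 was 0.02. At an unadjusted p under 0.05 edgeR had 1 neighbour in the hippocampus (DESeq2 0, background 8.69% of gene sums) and 0 in the cortex (DESeq2 0, 6.67%). It had 2 between the regions of 5×FAD mice (DESeq2 2, 12.6%). For the genotype difference in the hippocampus minus that in the cortex edgeR had 1 (DESeq2 1, 7.01%). Of 9 binding partners and linked RNAs, 6 had transcripts, among them Sf1, Celf3, Elavl1 and Ezh2. edgeR and DESeq2 called 0 of them in each of the 5 comparisons, with 0 gene sums at an unadjusted p under 0.05 by each tool, and their median log2 fold change lay between -0.22 and 0.07. Of 15 other lncRNAs of the brain, among them Malat1 and Meg3, edgeR and DESeq2 each called 1, Snhg11, lower in the WT hippocampus than in the WT cortex by a log2 fold change of -0.57 (adjusted p = 0.0439, edgeR). In the other 4 comparisons each tool called 0 of the 15 by gene sum (of their transcripts DESeq2 called 1, ENSMUST00000159568, in the cortex), and at an unadjusted p under 0.05 edgeR had 0 or 1 of them and DESeq2 1 or 2. The median log2 fold change of the 15 lay between -0.12 and 0.03, beside -0.02 to 0.03 over all gene sums.

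For each member, the genes whose log2 CPM moved most alike over the 12 libraries were found among 7855 annotated genes with a mean of at least 5 CPM, by the root mean square (RMS) of the difference between the centred profiles. The nearest of Miat were Madd (RMS 0.15) and Abhd8 (0.22), and those of Tug1 were Micu3 (0.16) and Gm5124 (0.16). Those of Pvt1 were BC049715 (0.17) and Lgi1 (0.19), and those of Pantr1 were Ranbp9 (0.20) and Ankmy2 (0.20). The profiles of these 4 members had an RMS of 0.33 to 0.39 around their own means. Oip5os1 was nearest to A330023F24Rik and D930016D06Rik (0.12 each), C130071C03Rik to Fbxw2 and Txndc16 (0.09 each) and 2900097C17Rik to Gprasp2 (0.08) and Gm49602 (0.09). These last 3 members varied little themselves (RMS 0.14, 0.13 and 0.11), so that their neighbours are mainly genes that also varied little.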

How the data were processed

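RNA of the hippocampus and the cerebral cortex was measured in 12 libraries, and the authors deposited 1 table with a raw whole-number count for every transcript and library, without normalization. Reads were trimmed with Trimmomatic 0.36, per the submitters' processing notes, which also name edgeR. The aligner, the counting program, the build and the annotation are not given in the sources used here. Identifiers were matched to GENCODE M21 (45372 of 45597 Ensembl identifiers), and counts were also summed per gene or assembled locus (2436 assembled transcripts). All columns were used and 0 were left out.

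The members, the lists of related genes and the tests were chosen with earlier results of these data known. The 8 members were named by list. Counts were tested over the whole table, per transcript and per gene sum, with edgeR 4.0.16 in R 4.3.3 (filterByExpr, TMM, glmQLFit, glmQLFTest), with Benjamini-Hochberg adjustment over all features and a threshold of 0.05. Each comparison used the 6 libraries of its 2 groups, and the interaction used all 12. The standard error was the log2 fold change divided by the square root of F, and 95% intervals used the fit's degrees of freedom. Values were given per library for gene sums, for the leading transcript and for transcripts with an unadjusted p under 0.05. Patterns were compared as log2(CPM + 1). Totals of 3517967 to 5014389 counts set the precision. The functions were tested on simulated counts. Alternatives were DESeq2's size factors, library totals only, DESeq2 1.42.0, 2 other filters, a robust fit, a block for the replicate number, 1 fit of all 12 libraries, each library left out, and 5×FAD 1 and 2 left out. Figures used Python 3.11.15. A few genes of the lists are not reported here by name.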

Additional observations from a re-analysis of the deposited data

Results flagged for a closer look

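The genotype difference of Tug1 had opposite signs in the 2 regions. All 3 libraries of the 5×FAD hippocampus were below all 3 of the WT hippocampus. All 3 of the 5×FAD cortex were above all 3 of the WT cortex, though WT cortex 1 (581 CPM) and 5×FAD cortex 1 (586 CPM) were nearly equal. Groups did not overlap for 16.8% of all gene sums in the hippocampus and for 12.9% in the cortex. The difference of the 2 log2 fold changes was -0.87, and the test of that difference did not pass (adjusted p = 0.657, edgeR's quasi-likelihood test). Leaving out 5×FAD hippocampus 3 gave a difference of -0.64, and leaving out 5×FAD hippocampus 2 gave -1.17. Under the other processing choices the adjusted p lay between 0.342 and 0.845.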

How the results depend on the processing

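The counts of members called, 0 for genes and 0 for transcripts in each of the 5 comparisons by edgeR, were 0 under every alternative run. In the hippocampus the lowest adjusted p-values came from the fit without 5×FAD 1 and 2, which leaves 1 library in a group. In the cortex, between the regions of WT mice, between those of 5×FAD mice and in the interaction, the lowest by edgeR or DESeq2 were 0.690, 0.0765, 0.307 and 0.342 for genes. For transcripts they were 0.0574, 0.138, 0.124 and 0.364 in the same order. Of 44 named log2 fold changes, 32 kept their sign under all of 833 alternative values. Without 5×FAD 1 and 2, that of Oip5os1 in the hippocampus was -0.12, and those of 2900097C17Rik were -0.12 in the hippocampus and 0.0541 in the cortex. With all 12 libraries in 1 fit that of Oip5os1 in the hippocampus was -0.00727. Leaving out single libraries turned the sign of 10 values, with these ranges: Miat -0.20 to 0.27, Oip5os1 -0.0934 to 0.0781 and Pvt1 -0.38 to 0.12 in the hippocampus, Pantr1 -0.29 to 0.0717 and C130071C03Rik -0.0651 to 0.0687 in the cortex, Pantr1 -0.15 to 0.26 between the regions of WT mice, Oip5os1 -0.16 to 0.00943, C130071C03Rik -0.10 to 0.0512 and 2900097C17Rik -0.0123 to 0.13 between those of 5×FAD mice, and Pvt1 -0.52 to 0.0120 in the interaction. The cause was not tested.

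Counts over all features depended on the tool and the fit. In the order of comparisons above, edgeR called 6, 2, 399, 22 and 0 gene sums and 4, 12, 217, 4 and 2 transcripts, and DESeq2 called 83, 53, 761, 336 and 21 gene sums and 127, 102, 743, 366 and 108 transcripts. At 10 or more counts in every library, 2, 1 and 37 gene sums were called in the hippocampus, the cortex and 5×FAD mice, and 1, 1, 355, 25 and 0 transcripts in the 5 comparisons, while without a filter 6, 71 and 0 transcripts were called in the cortex, WT and 5×FAD mice. With all 12 libraries in 1 fit, 3, 7 and 262 gene sums were called in the hippocampus, the cortex and 5×FAD mice, and 2, 3 and 160 transcripts. Without 5×FAD 1 and 2, 29 and 1 gene sums and 14 and 0 transcripts were called in the hippocampus and the cortex. With the replicate block, 2, 0, 5, 0 and 0 gene sums and 0 transcripts were called, and 0 members in each comparison. The numbers were not shown to pair the libraries: the correlation of deviations of same-numbered libraries was 0.006 to 0.13 between the regions, highest for 5×FAD 3, whose Y-linked counts also match, and -0.04 to 0.009 between the genotypes. Depth limits Tunar, at 1 to 10 counts, and the rarer forms of Pantr1 and Pvt1.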
